A study of Mus musculus with 7 samples.

Results

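The regions described here were promoters in mouse liver at which all receptors of the study had a called peak under both of its diets. The receptors were the retinoic acid receptors RARα and RARβ and the retinoid X receptor RXRα. Overlapping or touching peaks of the 6 deposited lists were merged into 87787 regions, and a region was called in a list when it held a peak of that list. Of these regions, 10643 had their midpoint within 1 kb of the start of a protein-coding gene, and 4694 of the 10643 were called in all 6 lists. The 4694 promoter regions were chosen by the peak calls themselves, so their presence in every list is a matter of definition. They lay at the starts of 5420 of 21535 protein-coding genes (25.2%), while 5739 genes (26.6%) had a region in 1 to 5 lists only and 10376 (48.2%) had none.

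The libraries came from wild-type C57BL/6 males, 3 months old, and the tissue was whole liver. The animals ate normal chow (Control) or chow with added retinoic acid (RA). According to the labels feeding lasted 1 day, whereas the study's methods describe a longer treatment, so the duration is open to doubt. Chromatin immunoprecipitation followed by sequencing (ChIP-seq), which recovers the DNA bound by a protein with an antibody, was performed with 1 library per receptor and diet. No difference below therefore has a replicate check, no test between lists was possible, and intervals cover counting error only. Whole liver holds hepatocytes, stellate cells and other cells, and a peak does not tell in which of them the receptor was bound. The input library of total chromatin was not used here, so the calls at these promoters were not set against unenriched chromatin beyond what the authors' peak caller did.

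RA, the active acid form of vitamin A, is the ligand of the RARs. A RAR binds DNA as a heterodimer with RXR, classically at direct repeats of a half-site of the form AGGTCA, where DR1, DR2 and DR5 denote repeats with 1, 2 and 5 bases in between. RXR also pairs with the receptors for fatty acids (PPAR), oxysterols (LXR), bile acids (FXR) and xenobiotics (PXR and CAR), and through these it takes part in the control of lipid, bile acid and drug metabolism in hepatocytes. Promoters of broadly expressed genes in mammals are often rich in the dinucleotide CpG, whereas promoters of tissue-restricted genes are often poor in it.

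Promoter sequences are shown first, because the members as a set differed from other promoters more in base composition and short motifs than in RAR/RXR repeats. All were read from RefSeq promoter sequences of GRCm38.p6 and are the 250 bases before the gene start, 5′ to 3′ on the gene's strand. The first set holds 4 of the 15 promoters that ranked highest over the 6 lists, restricted to those whose upstream bases overlap no other protein-coding gene. Capitals mark the GC box (GGGCGG), the CCAAT box (CCAAT) and the half-site AGGTCA, each searched on both strands. Mpc2 (subunit of the mitochondrial pyruvate carrier) lies at chr1:165461010-165461259 on the plus strand. Zc3h6 (a zinc finger protein) lies at chr2:128967152-128967401 on the plus strand. Narf lies at chr11:121236986-121237235 on the plus strand, and Gbe1 (the glycogen branching enzyme) at chr16:70313699-70313948 on the plus strand.
Mpc2: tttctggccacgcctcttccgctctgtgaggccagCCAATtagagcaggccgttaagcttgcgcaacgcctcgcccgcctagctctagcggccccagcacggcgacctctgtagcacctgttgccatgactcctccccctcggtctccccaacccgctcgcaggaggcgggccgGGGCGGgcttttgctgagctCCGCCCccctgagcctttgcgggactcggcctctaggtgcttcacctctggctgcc
Zc3h6: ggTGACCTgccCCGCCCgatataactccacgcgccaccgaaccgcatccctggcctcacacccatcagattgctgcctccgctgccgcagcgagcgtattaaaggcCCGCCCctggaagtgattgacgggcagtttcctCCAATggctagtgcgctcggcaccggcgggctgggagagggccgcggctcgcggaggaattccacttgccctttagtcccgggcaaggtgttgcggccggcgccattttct
Narf: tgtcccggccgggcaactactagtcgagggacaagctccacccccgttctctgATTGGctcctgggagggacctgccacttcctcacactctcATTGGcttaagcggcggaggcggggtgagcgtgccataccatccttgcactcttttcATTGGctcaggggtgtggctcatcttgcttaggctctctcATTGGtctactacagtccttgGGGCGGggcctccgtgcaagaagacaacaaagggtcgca
Gbe1: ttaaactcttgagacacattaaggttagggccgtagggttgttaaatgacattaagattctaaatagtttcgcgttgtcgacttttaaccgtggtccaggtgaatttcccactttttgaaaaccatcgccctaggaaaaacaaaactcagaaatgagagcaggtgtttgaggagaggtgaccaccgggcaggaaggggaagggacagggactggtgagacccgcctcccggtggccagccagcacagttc
The Mpc2 stretch held 2 GC boxes and 1 CCAAT box, the Zc3h6 stretch 2 GC boxes, 1 CCAAT box and 1 half-site, and the Narf stretch 1 GC box and 4 CCAAT boxes. The Gbe1 stretch held none of the 8 short motifs searched in these stretches, which were these 3 and the ETS, NRF1, YY1, CRE and E-box motifs spelled out further on.

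The second set holds the 5 member promoters that had a DR1, DR2 or DR5 before the start and whose upstream bases overlap no other protein-coding gene. It shows how rare the repeats were, since 11 of 4556 member promoters with a sequence (0.241%) had any of these repeats before the start, against 48 of all 17492 protein-coding promoters of the RefSeq sequences (0.274%). Capitals mark the repeat, made of 2 half-sites in 1 orientation on either strand. The half-site AGGTCA was allowed, and so were GGGTCA, the variant AGTTCA found in many response elements, and GGTTCA. Gm6712 lies at chr17:17294193-17294442 and Gm51425 at chr17:17004866-17005115, both on the plus strand. Isca1 (mitochondrial iron-sulfur cluster assembly) lies at chr13:59769790-59770039 on the minus strand. Zc3h11a lies at chr1:133661400-133661649 on the minus strand, and Casd1 (a sialic acid acetyltransferase) at chr6:4600661-4600910 on the plus strand.
Gm6712: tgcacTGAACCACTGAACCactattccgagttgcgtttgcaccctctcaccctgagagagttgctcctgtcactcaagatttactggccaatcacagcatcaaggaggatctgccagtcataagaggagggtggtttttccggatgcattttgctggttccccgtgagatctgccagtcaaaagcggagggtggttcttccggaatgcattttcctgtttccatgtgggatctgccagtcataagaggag
Gm51425: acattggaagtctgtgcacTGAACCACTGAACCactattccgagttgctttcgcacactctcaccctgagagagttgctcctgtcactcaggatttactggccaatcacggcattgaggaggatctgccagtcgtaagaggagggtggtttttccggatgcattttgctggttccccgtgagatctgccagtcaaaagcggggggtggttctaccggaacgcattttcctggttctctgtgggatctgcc
Isca1: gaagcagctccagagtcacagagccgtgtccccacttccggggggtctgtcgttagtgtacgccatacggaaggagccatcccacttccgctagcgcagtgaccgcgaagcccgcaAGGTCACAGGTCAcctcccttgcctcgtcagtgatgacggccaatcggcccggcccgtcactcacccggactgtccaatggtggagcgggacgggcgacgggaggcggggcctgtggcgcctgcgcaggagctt
Zc3h11a: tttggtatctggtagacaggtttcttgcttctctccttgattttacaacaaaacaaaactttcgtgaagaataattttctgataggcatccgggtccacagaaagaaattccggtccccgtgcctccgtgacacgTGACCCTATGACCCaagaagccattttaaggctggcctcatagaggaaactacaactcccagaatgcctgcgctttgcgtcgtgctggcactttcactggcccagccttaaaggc
Casd1: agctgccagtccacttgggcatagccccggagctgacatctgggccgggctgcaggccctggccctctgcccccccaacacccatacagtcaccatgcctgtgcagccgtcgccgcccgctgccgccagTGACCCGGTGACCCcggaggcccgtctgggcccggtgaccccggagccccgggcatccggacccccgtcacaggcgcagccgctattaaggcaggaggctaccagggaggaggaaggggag
Isca1 held a DR1, which spans positions -134 to -122 from the gene start. The other 4 promoters held a DR2. Gm6712 and Gm51425, both on chromosome 17, carried the same 14 letters in capitals within similar surroundings, so these 2 count as near copies rather than as separate cases.

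Calls in all 6 lists were concentrated at gene starts. The share of regions called in all 6 lists was 47.5% within 0.5 kb of a protein-coding start and 26.9% between 0.5 and 1 kb. It was 10.9% between 1 and 2 kb and between 4.25% and 5.95% in each class farther away. Over the whole window of 1 kb the share was 44.1% of promoter regions (Wilson 95% interval 43.2% to 45.05%), against 5.02% (4.87% to 5.17%) of the 77144 regions elsewhere, here called distal. Among promoter regions, all 6 was the most frequent number of lists, since 1095 were called in 1 list, 1048 in 2, 831 in 3, 1047 in 4 and 1928 in 5. Among distal regions 1 list was the most frequent number, with 24709 regions, and all 6 the least frequent, with 3871.

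**Figure D1:**
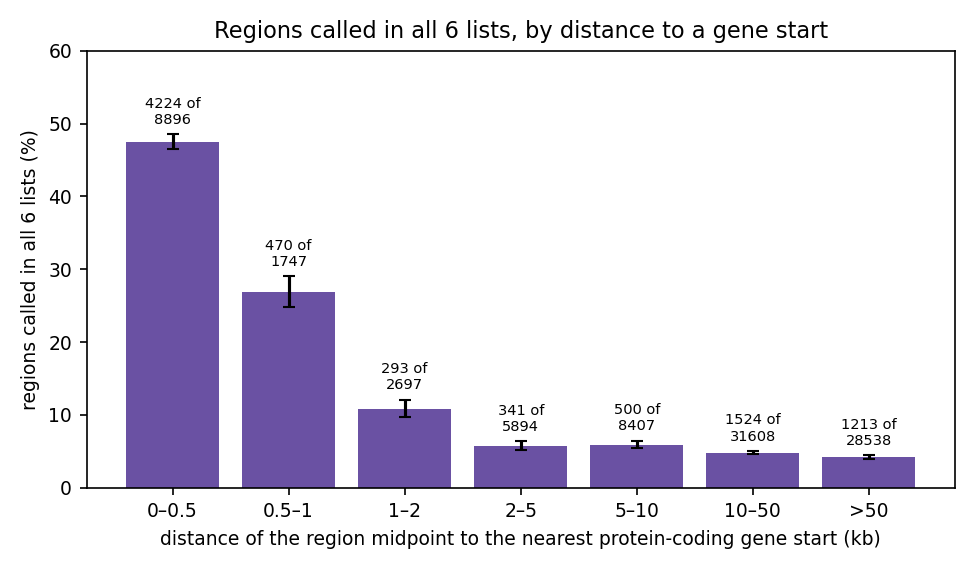
Share of merged regions called in all 6 lists (y axis, %) by the distance of the region midpoint to the nearest protein-coding gene start (x axis, kb). Bars give the share, error bars the Wilson 95% interval and the numbers the regions in all 6 lists of all regions in the class, and the share was 47.5% in the nearest class and 4.25% in the farthest.

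The list that most often kept a promoter out of the set was the RARβ list under the control diet, which was the shortest with 14968 peaks. Of the 1928 promoter regions called in 5 lists, 1124 (58.3%) lacked only that list, 382 lacked RXRα under Control, 169 RARβ under RA, 164 RXRα under RA, 50 RARα under Control and 39 RARα under RA. Seen from each list, members were 75.8% of the promoter regions with a RARβ peak under Control and 61.5% of those under RA. The corresponding shares were 53.0% and 52.7% for RARα and 59.6% and 57.3% for RXRα. Without the requirement of a RARβ peak under Control, 54.7% of promoter regions would have been called in the other 5 lists. The peak lists hold no read totals, and the totals stated in the study cover RARα and RXRα only, with no diet named. The part of read depth in these differences was not tested.

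Most member regions spanned the start, near which the rule places their midpoint. Their median width was 1239 bp, from 534 to 8615 bp, and 70 of them were wider than 3 kb. The region midpoint lay a median of 133 bp from the start, and 4565 of the 4694 regions (97.3%) spanned it. At the limit of 1 kb, the members farthest from a start were at Lpgat1 (999 bp) and Chrd (998.5 bp, the BMP antagonist chordin). The nearest regions left out were at Pkd1 (1000.5 bp) and Sfxn1 (1001.5 bp). The Pkd1 region had scores of 804 and 482 for RARα, 161 and 264 for RARβ and 151 and 186 for RXRα (Control and RA).

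The score of a peak is the caller's value of -10 times the log10 of its p-value and is not normalized between libraries, so peaks were also given a percentile rank, where 100 is the highest score of their own list. By this rank the promoter regions were high in the RAR lists and intermediate in the RXRα lists. The median score of the members was 305 under Control and 307 under RA for RARα, against 112 and 122.6 over the whole lists, and the median ranks were 87.0 and 85.7. For RARβ the median score was 111 under Control and 167 under RA, against 76.3 and 99.4 over the lists, with median ranks of 73.2 and 78.3. For RXRα it was 169 and 194, against 141 and 145, with median ranks of 57.3 and 61.7. The order was the other way at the 3871 distal regions called in all 6 lists. There the median ranks were 58.8 and 67.0 for RARα, 51.7 and 73.8 for RARβ and 86.2 and 85.5 for RXRα (Control and RA).

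The upper ends of the RARα and RXRα lists showed the same contrast. A RARα peak in the top 10% of its list was held by 40.3% of the members under Control and 37.6% under RA, compared with 16.5% and 18.6% of the distal regions. A RXRα peak in the top 10% was held by 7.24% and 7.33% of the members, compared with 40.9% and 41.0% of the distal regions. For RARβ the shares were 17.9% and 25.6% for members and 11.8% and 23.3% for distal regions. Since the regions were chosen from the same calls, these values describe the lists and support no test.

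**Figure D2:**
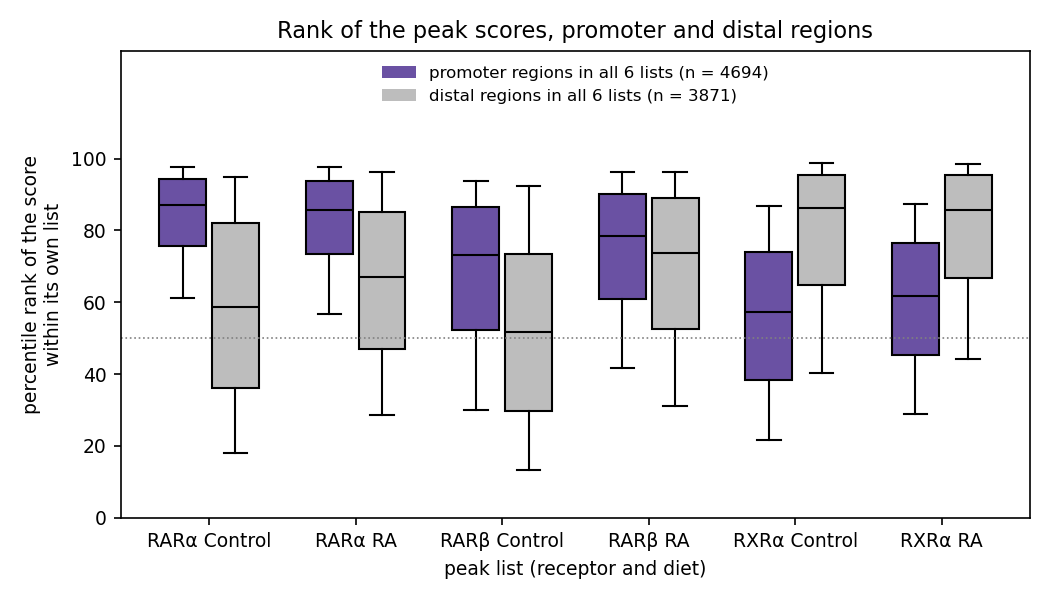
Percentile rank of the highest-scoring peak within its own list (y axis, 100 is the highest score) for each receptor and diet (x axis), in the 4694 promoter regions (purple) and the 3871 distal regions (grey) called in all 6 lists. Boxes span the quartiles with the median as a line and whiskers reach the 10th and 90th percentiles, and the promoter median was 87.0 for RARα under Control but 57.3 for RXRα.

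Scores varied among the members, and the order was shared between diets of 1 receptor more than between receptors. Spearman's rho between the diets over the 4694 members was 0.79 for RARα, 0.76 for RXRα and 0.55 for RARβ. Between receptors it ranged from 0.06 to 0.30. At the distal regions the rho of RARα with RXRα was negative, between -0.30 and -0.13, whereas over the promoters it was between 0.08 and 0.18. These coefficients are across regions of the same libraries, which are not independent replicates. Among the 469 highest-scoring members of each list, which are 10% of the members, 61.6% were shared between diets for RARα, 63.8% for RARβ and 71.9% for RXRα. Across receptors 10.02% to 15.6% were shared, where unrelated orders would share about 10%, and 3 regions were among the 469 of all 6 lists.

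The mean rank over the 6 lists ran from 21.2 to 97.7 with a median of 70.8. Of the members, 1730 (36.9%) ranked above the median of every list, 14 ranked in the top 10% of every list and 11 ranked below the median of every list. The highest mean ranks were found at promoters of genes with a range of functions. Mpc2, whose region also covers the start of Dcaf6, had scores of 697 and 805 for RARα, 315 and 301 for RARβ and 840 and 905 for RXRα (Control and RA). Gbe1 had 814 and 821 for RARα, 172 and 333 for RARβ and 833 and 997 for RXRα. The lowest rank within a list at Mpc2 and Gbe1 was 88.97, at Gbe1 for RARβ under Control. Over the 15 members with the highest mean rank it was 86.04, at Crat for RARβ under Control.

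Pdp2, a phosphatase that activates pyruvate dehydrogenase, had scores of 295 and 379 for RARα, 289 and 608 for RARβ and 1457 and 1037 for RXRα. The region shared by Crat (carnitine acetyltransferase) and Ptpa (an activator of protein phosphatase 2A) had 591 and 637 for RARα, 155 and 358 for RARβ and 680 and 1172 for RXRα. By rank within the list, Pdp2 stood highest for RXRα under Control (99.8) and for RARβ under RA (99.3), and the Crat region highest for RARα under Control (98.2) and for RXRα under RA (99.1). The region between Slc26a8 and Mapk14, which encodes the p38α stress kinase, had 829.5 and 1089 for RARα, 388 and 351 for RARβ and 749 and 695 for RXRα. Rps29, a protein of the small ribosomal subunit, had 381 and 513 for RARα, 289 and 285 for RARβ and 1024.5 and 962 for RXRα. The others of the 15 with the highest mean rank were Zc3h6, Narf, Alkbh7 (a mitochondrial AlkB homologue), Zfpm1 (the GATA cofactor FOG1), Ttc32, Ahcyl1 (an inhibitor of the inositol trisphosphate receptor), Uspl1, Napa (the SNARE adaptor α-SNAP) and Amz2.

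A promoter near the top for a RAR could rank lower for RXRα. Khsrp, which encodes a splicing and mRNA decay factor, had the highest RARβ score of all members under RA, 2065, after 891 under Control. Its scores were 443 and 529 for RARα and 175 and 165 for RXRα. Polr2a, the largest subunit of RNA polymerase II, had 1397.5 and 1487 for RARα, 250.5 and 239 for RARβ and 362 and 384 for RXRα. Atp5b, the catalytic β subunit of ATP synthase, had 689 and 589 for RARα, 1076 and 1658 for RARβ and 326 and 321 for RXRα. Polr2a and Atp5b ranked at 98.3 or above in the RARα lists and Khsrp and Atp5b at 99.7 or above in the RARβ lists, with RXRα ranks between 55.3 and 83.5 for the 3. These genes, other than those under the rule for named genes, were picked after their values were seen.

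At the other end, the lowest mean ranks were at Gm32856, Sephs1 (a selenophosphate synthetase homologue), B9d2 (a protein of the ciliary transition zone), Qrsl1 (a subunit of the mitochondrial glutamyl-tRNA amidotransferase) with Rtn4ip1, and Smarcc2 (a subunit of the BAF chromatin remodelling complex). Gm32856 had scores of 99.7 and 64.8 for RARα, 69.8 and 53.6 for RARβ and 71.2 and 50.97 for RXRα. B9d2 had 51.2 and 66.0 for RARα, 52.7 and 153 for RARβ and 88.4 and 72.1 for RXRα. Every list starts at a score of 50, so these promoters met the rule through several calls close to that limit.

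The RARα peaks lay slightly downstream of those of RARβ and RXRα. The peak midpoint lay a median of 29.75 bp downstream of the start for RARα under Control and 17 bp under RA. For RARβ it was at -19.25 bp under Control, where minus means upstream, and 1 bp downstream under RA. For RXRα it was at -18.5 and -5.5 bp. The RXRα peaks were also the more dispersed, with 14.1% and 12.4% of them over 500 bp from the start against 7.65% to 8.33% in the other 4 lists. Within the same region under Control, the RARα midpoint was downstream of the RXRα midpoint in 61.5% of members. The median shift over all members was 42 bp under Control and 26 bp under RA. Against RARβ the RARα midpoint was shifted by 39 bp under Control and 16.5 bp under RA. Between RARβ and RXRα the median shift was 8 bp under either diet. Between the diets (Control minus RA) the median shift was 8 bp for RARα, -9.5 bp for RARβ and -9 bp for RXRα. The median distance between 2 lists in a region, regardless of direction, was 67.5 to 111.5 bp. The median distance of a peak to the start was 93 to 135.5 bp by list, so the shifts are small beside the spread of positions.

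**Figure D3:**
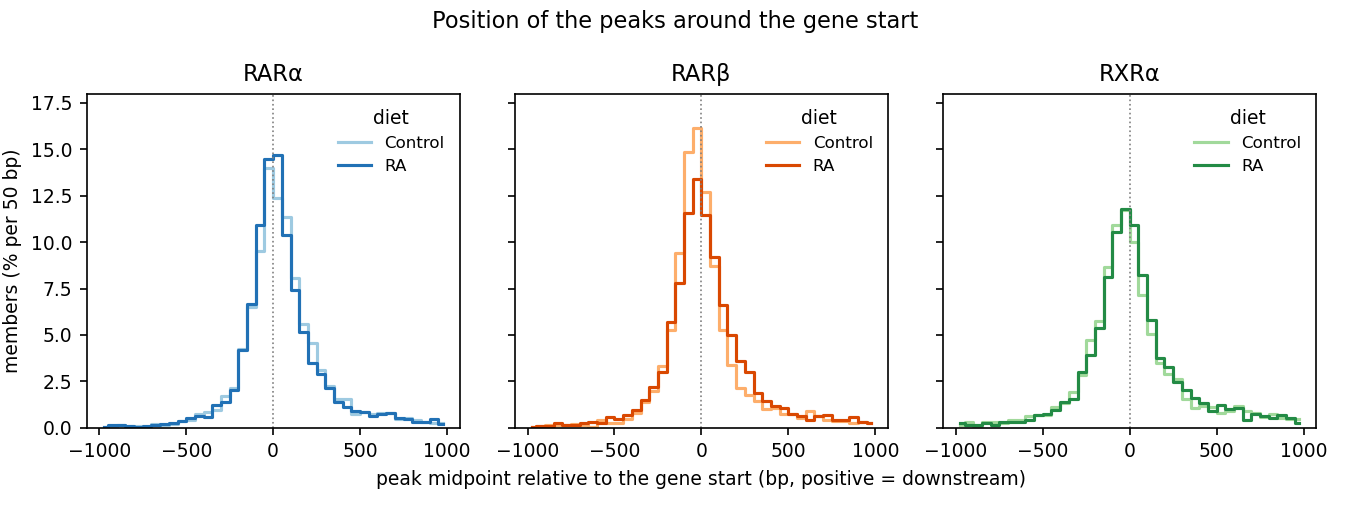
Position of the highest-scoring peak of each list relative to the gene start in the 4694 member regions (x axis, bp, positive is downstream of the start), as the share of members per 50 bp (y axis), with Control in the lighter and RA in the darker line. All 6 lists peak within 50 bp of the start, and the RXRα lists have the broader flanks.

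A sizeable minority of members lay at the starts of 2 genes. The region lay within 1 kb of starts on both strands for 700 of the 4694 members (14.9%, Wilson 95% interval 13.9% to 16.0%), against 411 of 5949 promoter regions in 1 to 5 lists (6.91%, 6.29% to 7.58%). By the number of lists, this share was 3.38% for 1 list, 3.53% for 2, 5.78% for 3, 8.02% for 4 and 10.6% for 5. Examples among the named regions were Mpc2 with Dcaf6, Slc26a8 with Mapk14, Psma2 with Mrpl32, Ndufa4 with Phf14 and Eif2b4 with Snx17. A region with 2 starts has more ways to meet the distance rule, and its part in this difference was not tested.

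Members were spread over the autosomes and rare on the sex chromosomes. Between 20.8% and 30.5% of the protein-coding genes of an autosome had a member region, the lowest share on chromosome 7 and the highest on chromosome 8. On chromosome X the share was 43 of 954 genes (4.51%), and on chromosome Y it was 0 of 218. Chromosome X is present in 1 copy in these male animals, and the part of copy number and of gene content in this value was not tested. A named X-linked member was Hdac6, the cytoplasmic tubulin deacetylase.

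Sequence composition set the member promoters apart. A RefSeq promoter sequence of 300 bases, from 250 before to 50 after the start, was matched to 4556 of the 5420 member genes (84.1%). Their median GC content was 61.7%, against 59.7% for genes with a region in 1 to 5 lists and 50% for genes with none. The median ratio of observed to expected CpG was 0.82 for members, 0.71 for 1 to 5 lists and 0.26 for none. With CpG-rich defined as a ratio of at least 0.6 and a GC content of at least 50%, 79.8% of member promoters were CpG-rich (78.6% to 81.0%), against 58.9% for 1 to 5 lists, 20.5% for none and 45.8% of all. Read the other way, 45.4% of the 8004 CpG-rich promoters were members (44.4% to 46.5%) and 9.69% of the 9488 others (9.11% to 10.3%).

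**Figure D4:**
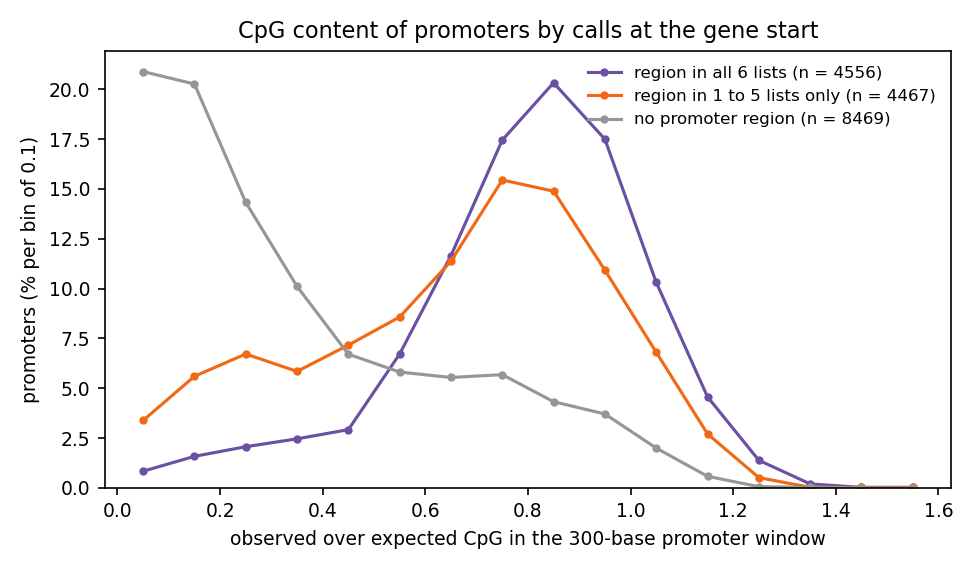
Observed over expected CpG (x axis) in the 300-base promoter sequences of genes with a member region, with a region in 1 to 5 lists only and with no promoter region, as the share of promoters per bin of 0.1 (y axis). The member promoters are centred on 0.85, where 20.3% of them lie, whereas those with no region are highest at the left.

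Short motifs of the general promoter factors were more frequent in members, also when the comparison was kept to CpG-rich promoters. The ETS motif (CCGGAAG, bound by factors such as GABP) was in 23.5% of member promoters (22.3% to 24.7%) and in 11.9% of all. Among CpG-rich promoters it was in 25.6% of members and 15.8% of the rest. The core of the NRF1 motif (GCATGCGC), a factor of genes for mitochondrial proteins, was in 7.24% of members against 3.61% of all, and in 8.22% against 5.18% among CpG-rich promoters. The YY1 motif (AAGATGGCG) was in 3.93% against 1.92%, and in 4.59% against 2.75%. The cyclic AMP response element (TGACGTCA) was in 3.99% against 2.33%, and the E-box (CACGTG), the site of clock and MYC-family factors, in 11.7% against 7.91%.

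The other general promoter elements differed in different ways. The GC box (GGGCGG), bound by the SP factors, was in 69.4% of members against 46.3% of all, but in 76.8% of both members and other promoters when only CpG-rich ones were compared. The CCAAT box, bound by NF-Y, was in 43.0% of members against 39.2% of all, and in 41.8% against 33.8% among CpG-rich promoters. The TATA box (TATAAA) was in 6.04% of members against 13.3% of all, but in 4.67% of members against 4.92% of the rest among CpG-rich promoters. All motifs were searched on both strands, and none of these short words contains another of them, although matches may overlap in part.

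Motifs of the receptors themselves were few in these windows. The single half-site AGGTCA was in 11.7% of member promoters against 14.5% of all, but among CpG-rich promoters in 10.4% of members against 8.31% of the rest. The HNF4 motif CAAAGTCCA, a site of the hepatocyte receptor HNF4α, was in 0.439% against 0.417%. DR1 was in 12 of 4556 member promoters (0.263%) against 0.183% of all, and DR2 in 5 (0.110%) against 0.0972%. DR5, the classical element of the RARs, was in 0 of 4556, which allows up to 0.0658% if 3 counts are taken as the limit and up to 0.0842% by the Wilson interval, against 0.0858% of all. Direct repeats with 0 to 8 bases between the half-sites and inverted repeats with 0 to 2 bases were each in at most 0.263% of member promoters. The windows cover 300 bases while the regions had a median width of 1239 bp, so these shares speak only of the bases next to the start and of exact letters.

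Gene groups were read against the 25.2% of all protein-coding genes that had a member region. Of 28 gene groups, 18 were above this share. With the full lists, the highest shares were in the machinery of energy production, protein synthesis and RNA processing. A member region was found for 38 of 49 genes of the complex I group (77.6%, Wilson 95% interval 64.1% to 87.0%). This group was taken by Nduf symbol, so not every gene in it need encode a subunit or assembly factor of respiratory complex I. Members were also found for 33 of 48 spliceosome genes (68.8%), 53 of 78 mitochondrial ribosomal proteins (67.9%), 25 of 37 aminoacyl-tRNA synthetases (67.6%), 12 of 18 autophagy (Atg) genes (66.7%), 29 of 44 subunits of complexes III to V (65.9%) and 26 of 40 proteasome subunits (65.0%). Cytosolic ribosomal proteins followed with 49 of 83 (59.0%), RNA polymerase II and Mediator with 25 of 43 (58.1%), translation initiation factors with 32 of 56 (57.1%) and vesicle transport with 39 of 72 (54.2%). The intervals of these 11 groups lay wholly above 25.2%, as did that of cholesterol and fatty acid synthesis described further on. With all lists shortened to equal length, 3.58% of all genes had a member region and the aminoacyl-tRNA synthetases, with 1 of 37, were below this share. The order of the groups did not hold at that setting. Fatty acid oxidation then had 6 of 30 genes and the circadian clock 4 of 21. Complex I had 8 of 49, the spliceosome 2 of 48 and the cytosolic ribosomal proteins 5 of 83.

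**Figure D5:**
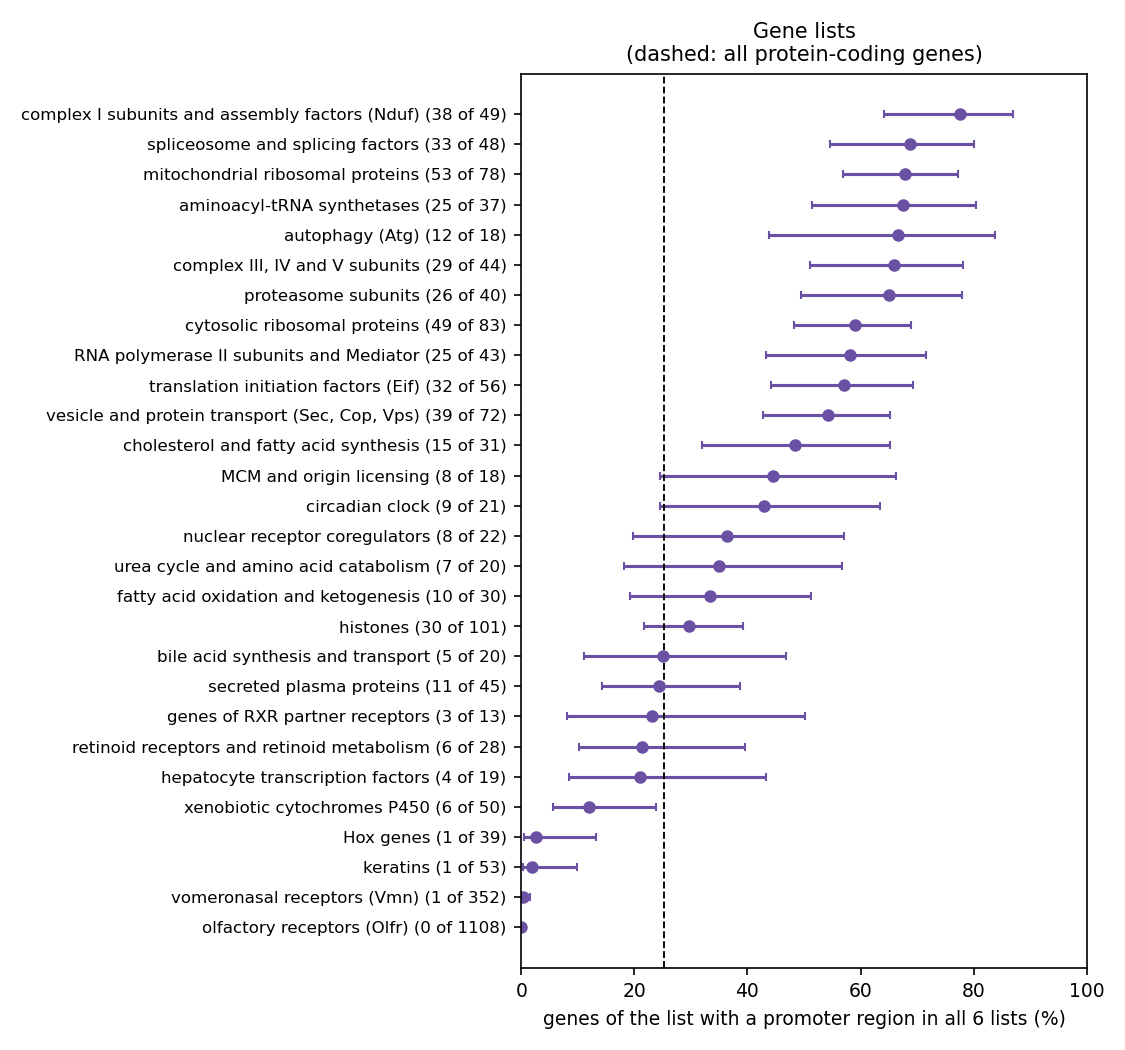
Share of the genes of each of 28 groups with a promoter region called in all 6 lists (x axis, %), with the number of genes in brackets. Points give the share, error bars the Wilson 95% interval and the dashed line the 25.2% of all protein-coding genes, and the groups run from complex I with 77.6% at the top to the olfactory receptors with 0 at the bottom.

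Within these groups the median ranks of the RAR peaks were above those of the RXRα peaks, which was also the order over all members. Over all members the medians were 87.0 and 85.7 for RARα, 73.2 and 78.3 for RARβ and 57.3 and 61.7 for RXRα (Control and RA). The cytosolic ribosomal protein regions had median ranks of 91.8 and 94.4 for RARα and 82.3 and 84.2 for RARβ, but 43.4 and 51.1 for RXRα (Control and RA). The spliceosome regions had 89.96 and 89.6 for RARα, 69.9 and 79.2 for RARβ and 42.6 and 49.1 for RXRα. Complex I had the highest RXRα median under Control of these 11 groups, with 72.1 and 64.2. Ndufb6, an accessory subunit, had scores of 332 and 439 for RARα, 190 and 114 for RARβ and 798 and 743 for RXRα. Ndufs7, a core subunit with an iron-sulfur cluster, had 381 and 433 for RARα, 242 and 491 for RARβ and 297 and 323 for RXRα. Srsf7, a splicing factor, had 1229 and 1128 for RARα, 427 and 419 for RARβ and 116 and 292 for RXRα. The nearest start of the Srsf7 region belonged to another gene. By rank within the list RXRα was the highest of the 3 at Ndufb6 (97.2 and 96.0) and the lowest at Srsf7 (41.8 and 75.8). Psmb2, a β subunit of the proteasome core, had 376 and 403 for RARα, 542 and 490 for RARβ and 334 and 298 for RXRα. Med23, a Mediator subunit, had 667 and 747 for RARα, 286 and 212 for RARβ and 392.5 and 558 for RXRα.

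Histone genes had the highest RARα ranks of any group, with medians of 99.3 and 99.4, and RXRα medians of 43.9 and 52.3. Their share was not far from that of all genes, with 30 of 101 genes (29.7%, 21.7% to 39.2%) on 21 regions. H4c3, a histone H4 gene, had scores of 1537 and 1224 for RARα, 195 and 198 for RARβ and 387 and 298 for RXRα, and its RARα score under Control was the highest of all members. Histone genes lie close together in near-identical copies, so reads and regions cannot always be given to 1 of them. With a window of 0.5 kb the histone share was below that of all genes.

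Genes of lipid metabolism were members in part, and at the oxidation genes the RXRα peaks ranked high. Of 31 genes of cholesterol and fatty acid synthesis, 15 had a member region (48.4%, 31.97% to 65.2%), with median RXRα ranks of 57.8 and 55.5. Fasn, the fatty acid synthase, had scores of 560 and 661 for RARα, 119 and 156 for RARβ and 773 and 658 for RXRα. The Fasn ranks were 97.8 and 99.02 for RARα, 76.5 and 75.2 for RARβ and 96.9 and 94.5 for RXRα, so it stood higher in the RARα and RXRα lists. Of 30 genes of fatty acid oxidation and ketogenesis, 10 had a member region (33.3%, 19.2% to 51.2%), with median ranks of 91.2 and 93.1 for RARα, 55.9 and 72.8 for RARβ and 93.2 and 88.4 for RXRα. Acadm, the medium-chain acyl-CoA dehydrogenase, had 350 and 423 for RARα, 107 and 188 for RARβ and 738 and 648 for RXRα. Slc25a20, the mitochondrial carnitine carrier, had 239 and 264 for RARα, 81.1 and 102 for RARβ and 761 and 917 for RXRα. Cd36, Angptl4 and Cpt1a, the gatekeeper of mitochondrial fatty acid import, had no region within 1 kb of the outermost start in any list.

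None of the groups of products of the differentiated hepatocyte had a share whose interval lay above that of genes at large. A member region was found for 11 of 45 secreted plasma proteins (24.4%, 14.2% to 38.7%), 5 of 20 genes of bile acid synthesis and transport (25%, 11.2% to 46.9%), 7 of 20 genes of the urea cycle and amino acid catabolism (35.0%, 18.1% to 56.7%) and 6 of 50 xenobiotic cytochromes P450 (12%, 5.62% to 23.8%). The intervals of the first 3 include 25.2% and that of the P450 genes lies below it. With lists of equal length the order turned for 3 of these groups, since 4 of 45 plasma proteins, 3 of 20 bile acid genes and 2 of 50 P450 genes then had a member region, above the 3.58% of all genes. Plasma proteins and bile acid genes were also above all genes when the region had to span the start. The same held without the RARβ Control or the RARβ RA list. Plasma proteins were above without the RARα Control list, and bile acid genes without the RXRα Control list or without regions wider than 3 kb. Cyp7a1, the rate-limiting enzyme of bile acid synthesis, had scores of 143 and 199 for RARα, 55.7 and 117 for RARβ and 548 and 713 for RXRα. Cyp3a59 had 141 and 256 for RARα, 120 and 161 for RARβ and 957 and 989 for RXRα. Coagulation factor F7 had 260.0 and 255.5 for RARα, 85.6 and 137.5 for RARβ and 577 and 631 for RXRα. At all 3 the RXRα ranks, of 92.2 or above, were the highest of the 3 receptors. At other members, Amacr and Hsd3b7 of the bile acid group and Cyp2d10 of the P450 group, the RARα ranks were the highest instead. The median RARβ rank under Control was 18.04 for the bile acid regions, 48.5 for the plasma proteins and 40.7 for the P450 genes, while the RXRα medians of these groups were between 80.3 and 91.3. The RARα medians (Control and RA) were 71.0 and 96.1 for the bile acid regions, 67.6 and 85.6 for the plasma proteins and 57.1 and 78.6 for the P450 genes. Under RA the bile acid median was thus higher for RARα than for RXRα (87.3).

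The retinoid genes, the receptors' own system, had 6 of 28 in the set (21.4%, 10.2% to 39.5%). Dgat1, which can esterify retinol as well as diacylglycerol, had scores of 625.5 and 384 for RARα, 284 and 436 for RARβ and 316 and 484 for RXRα. Rdh14, a retinol dehydrogenase, had 363 and 449 for RARα, 81.8 and 202 for RARβ and 216 and 622 for RXRα. Dgat1 was the strongest of the 6 over all lists, with a mean rank of 92.1. Bco2, the carotenoid oxygenase of mitochondria, had 323 and 295 for RARα, 96.9 and 88.3 for RARβ and 426 and 409 for RXRα. The nearest start of the Bco2 region belonged to another gene. Dhrs4, a retinal reductase, had 459 and 536 for RARα, 58.5 and 109.5 for RARβ and 398 and 444 for RXRα. Rdh10, a retinol dehydrogenase, had 464 and 230 for RARα, 88.1 and 97.9 for RARβ and 90.8 and 127 for RXRα. The nearest start of the Rdh10 region was that of Rpl7, a cytosolic ribosomal protein gene counted with the same region. Rxrb, whose region also covers the start of Slc39a7, had 279 and 246 for RARα, 79.5 and 103 for RARβ and 63.4 and 222 for RXRα. Of the 3 RXR and 3 RAR genes Rxrb was the only one with a member region.

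Most retinoid genes missed the set, 2 of them by 1 list. Cyp26a1, which degrades RA and is a classical RAR target, and Rdh16 were called in the other 5 lists and lacked a RARβ peak under Control. Rxra was called in 4 lists, the RARα and RXRα lists of both diets. Aldh1a1 and Aldh1a2, which make RA from retinal, and also Rdh11 were called in 3 lists each. Lrat was called in the 2 RARα lists, Ttr in the 2 RXRα lists and Bco1 in the lists of RARα under Control and RXRα under RA. Rara, Rarb, Rarg, Rxrg, Rbp4, Stra6, Crabp1, Crabp2, Dhrs3, Aldh1a3, Cyp26b1 and Cyp26c1 had no promoter region in any list. Starts here are the outermost annotated ones, so peaks at internal promoters, which several of the receptor genes have, are not counted.

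Genes of the receptors that partner RXR were similar, with 3 of 13 (23.1%, 8.18% to 50.3%). Nr1h3 (LXRα) had scores of 714 and 549 for RARα, 132.4 and 227 for RARβ and 235 and 242 for RXRα, in a region whose nearest start belonged to another gene. Ppara had 479 and 294 for RARα, 61.1 and 158.5 for RARβ and 1018 and 1134 for RXRα. Nr1h2 (LXRβ) had 169 and 165 for RARα, 62.8 and 181 for RARβ and 103 and 120 for RXRα. By rank within the list Ppara stood highest for RXRα (98.8 and 99.03) and Nr1h3 for RARα (99.3 and 97.6), while Nr1h2 ranked highest in the list of RARβ under RA (81.8). Nr1h4 (FXR), Nr1i2 (PXR), Nr1i3 (CAR) and Nr4a2 lacked only a RARβ peak under Control. Ppard was called in 4 lists, Thra in 4 that did not share 1 region, Nr4a1 in 3, and Pparg, Thrb and Vdr in none.

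Among hepatocyte transcription factors 4 of 19 were members (21.1%, 8.51% to 43.3%). Cebpa had scores of 210.0 and 233 for RARα, 69.0 and 112 for RARβ and 498 and 423.5 for RXRα. Foxa3 had 572.5 and 797.5 for RARα, 61.1 and 136 for RARβ and 145.5 and 159 for RXRα. The start of Sympk also lay within 1 kb of the Foxa3 region midpoint. Foxa2 had 109 and 147 for RARα, 78.6 and 80.1 for RARβ and 262 and 362 for RXRα. By rank Cebpa (90.5 and 85.9) and Foxa2 (73.0 and 82.1) stood highest in the RXRα lists and Foxa3 (98.0 and 99.5) in the RARα lists. The Cebpa region was the widest of all members, from 35115906 to 35124520 on chromosome 7. Hnf4a was called in the 2 RXRα lists only, Nr0b2 (SHP), Nr5a2, Tbx3 and Gata6 lacked only RARβ under Control, and Cebpb, Creb3l3 and Foxa1 had no promoter region.

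The circadian clock had 9 of 21 genes in the set (42.9%, 24.5% to 63.5%). Nr1d2 (REV-ERBβ), a repressor of the clock, had scores of 388 and 440 for RARα, 303 and 416 for RARβ and 427 and 409 for RXRα. Per3 had 353 and 195 for RARα, 98.2 and 263 for RARβ and 613 and 619 for RXRα, and the nearest start of its region belonged to another gene. Cry2, a repressor of CLOCK and BMAL1, had 416 and 466.5 for RARα, 190 and 220 for RARβ and 74.7 and 55.3 for RXRα. Nr1d2 ranked at 85.2 or above in every list, whereas Cry2 ranked at 94.0 and 95.6 in the RARα lists and at 21.2 and 4.63 in the RXRα lists. Ciart, Bhlhe41, Tef, Csnk1d, Hlf and Cry1 were the other members. Npas2 lacked only RARα under Control. Bhlhe40, Dbp, Arntl (BMAL1), Rora, Per1, Nr1d1, Nfil3 and Csnk1e had no promoter region at the outermost start.

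Of the other regulatory groups, nuclear receptor coregulators had 8 of 22 genes in the set (36.4%, 19.7% to 57.0%). Ncoa2, a p160 coactivator, had scores of 189.5 and 258 for RARα, 218 and 255 for RARβ and 509 and 469 for RXRα. Ncoa3, of the same family, had 717.5 and 560.3 for RARα, 85.6 and 188 for RARβ and 320 and 380.0 for RXRα. By rank within the list Ncoa2 stood highest for RARβ (93.4 and 92.4) and Ncoa3 for RARα (99.3 and 97.9). The MCM and origin licensing group had 8 of 18 (44.4%, 24.6% to 66.3%), among them Mcm7, Mcm4, Cdt1 and Orc2.

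Gene families of the embryonic axis, of epithelia and of chemosensory neurons were nearly absent. Of 39 Hox genes 1 was a member (2.56%), Hoxa5, with scores of 176 and 360.0 for RARα, 54.1 and 68.8 for RARβ and 50.98 and 93.0 for RXRα. Of 53 keratin genes 1 was a member (1.89%), Krt8, a keratin of simple epithelia that hepatocytes express, with 454.5 and 612 for RARα, 74.1 and 84.0 for RARβ and 253 and 250.02 for RXRα. Hoxa5 had the lower score of the pair in each of the lists. Of 352 vomeronasal receptor genes 1 was counted, Vmn1r4, whose region is also at the start of Nt5c3. Of 1108 olfactory receptor genes 0 had a member region, which allows a share of up to 0.271%.

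Distal regions called in all 6 lists were not more frequent near genes with a member region. A distal region called in all 6 lists lay within 10 kb of the start of 4.94% of them, against 7.04% of genes with a promoter region in 1 to 5 lists and 6.43% of genes with none. Any distal region lay within 10 kb for 63.7%, 67.5% and 39.0% in the same order. Median gene length was 21028, 22797 and 11640 bp.

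Between diets, the ranks of the members in their own lists differed least for RARα and more for RARβ and RXRα. The lists compared have different lengths, with 35521 and 44296 peaks for RARα, 14968 and 29467 for RARβ and 61128 and 59624 for RXRα (Control and RA). A longer list can hold more weak peaks, which raises the rank of a given peak, so a change of rank cannot be told apart from a change of the list. The median change from Control to RA was -0.61 points for RARα, 3.58 for RARβ and 2.92 for RXRα. Over all regions with a peak of the receptor under both diets it was 4.24, 6.29 and 0.07. A change of at least 20 points was counted as a move. For RARα, 184 members (3.92%) ranked higher under RA and 307 (6.54%) lower, against a background of 21.7% and 8.25% of the 29701 regions in both RARα lists. For RARβ, 1079 (23.0%) ranked higher and 529 (11.3%) lower, against 32.1% and 12.5% of 11447. For RXRα, 732 (15.6%) ranked higher and 309 (6.58%) lower, against 12.2% and 13% of 46703. Members are part of these backgrounds.

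How far a peak can move depends on where it starts. RARα peaks of members ranked high under Control, so 1537 of 4694 had room to rank 20 points higher, and 184 of these (11.97%) did, against 28.5% of all regions with such room. The same shares were 37.1% against 43.0% for RARβ and 18.9% against 16.4% for RXRα. For lower ranks they were 6.61% against 9.54% for RARα, 11.97% against 14.4% for RARβ and 7.25% against 14.6% for RXRα. When ranks were taken among the members alone, 622 were higher and 593 lower for RARα, 993 and 1020 for RARβ and 654 and 678 for RXRα. Ranks among the members balance higher and lower by construction, so these counts give only how many members changed their order, and the direction of the counts above holds for ranks in the whole list alone. The restriction to regions with room was chosen after the data were seen.

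The largest moves of RARα toward higher ranks were at Cpn2, Srrm3, Cox8a and Slc10a1. Slc10a1, the sodium-dependent bile acid importer of hepatocytes, had RARα scores of 74.95 under Control and 331 under RA, with 56.0 and 74.8 for RARβ and 352 and 383 for RXRα. Cox8a, a subunit of cytochrome c oxidase, had 77.8 and 359.9 for RARα, 97.1 and 158 for RARβ and 100.99 and 138 for RXRα. In both the rank differed by 59.8 or 59.9 points for RARα and by 1.32 to 13.4 points for the other receptors. The largest moves toward lower ranks were at Hdac6, Stam2, Zfp882 and Mrps11 with Mrpl46. Hdac6 had RARα scores of 241 and 53.6, RARβ scores of 114.5 and 96.4 and RXRα scores of 58.9 and 174. Stam2, an endosomal sorting adaptor, had 253 and 59.7 for RARα, 50.2 and 137 for RARβ and 65.1 and 109 for RXRα. By rank both were lower for RARα and higher for RXRα under RA.

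For RARβ the largest moves toward higher ranks were at Brat1, Kng1, Slc47a1 and Cables2. Kng1, the plasma protein kininogen, had RARβ scores of 51.7 and 269, RARα scores of 146.5 and 258.5 and RXRα scores of 527 and 454. Slc47a1, the organic cation exporter MATE1, had 52.3 and 298 for RARβ, 139 and 222 for RARα and 378.5 and 499 for RXRα. In both, RARβ under Control was just above the limit of the list, as the rule for the largest moves favours. The largest moves toward lower ranks were at Macir, Ctbs, Sec22c and Ostm1. Macir had RARβ scores of 149 and 50.7, RARα scores of 323 and 185 and RXRα scores of 121 and 157. Ctbs, a lysosomal chitobiase, had 137 and 53.2 for RARβ, 592 and 379 for RARα and 200.0 and 139 for RXRα.

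For RXRα the largest moves toward higher ranks were at Ccdc159 with Tmem205, Itsn2, Klhdc3 and Zfand1, and those toward lower ranks at H6pd, Rfwd3, Ccs and B4galt1. Itsn2, an endocytic scaffold, had RXRα scores of 54.8 and 292, RARα scores of 136 and 172 and RARβ scores of 62.8 and 83.1. H6pd, the hexose-6-phosphate dehydrogenase of the endoplasmic reticulum, had 249.3 and 50.8 for RXRα, 418 and 207 for RARα and 68.0 and 75.7 for RARβ. B4galt1, a galactosyltransferase, had 628 and 97.6 for RXRα, 395 and 305 for RARα and 114.5 and 121.5 for RARβ. By rank H6pd was lower for RARα under RA as well, whereas Itsn2 was higher under RA for all 3 receptors.

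Some members moved for more than 1 receptor. Of the 184 members with a higher RARα rank under RA, 70 (38.04%) also had a higher RARβ rank, against 23.0% of all members, and they are 6.49% of the 1079 for RARβ. RARβ and RXRα shared 154, which is 14.3% of the RARβ moves, against 15.6% of all members for RXRα, and 21.0% of the RXRα moves, against 23.0% of all members for RARβ. RARα and RXRα shared 23, which is 12.5% of the RARα moves, against 15.6% of all members for RXRα. For lower ranks, RARα shared 57 with RARβ (18.6% of the RARα moves, against 11.3% of all members) and 29 with RXRα (9.45% against 6.58%). RARβ and RXRα shared 56 lower moves, 10.6% of the RARβ moves against 6.58% of all members. Taken singly, 3.92%, 23.0% and 15.6% of members ranked higher and 6.54%, 11.3% and 6.58% lower (RARα, RARβ and RXRα). Joint moves of all 3 receptors were not tested against unrelated moves. In all, 5 of the 4694 members ranked higher for all 3 receptors, and 6 ranked lower. The former were Zfp809, Anks4b, Rbbp5, B4galt5 and Bcap29, and the latter Cyp51, Blvrb, Exoc6b, Ppp5c, Agrn and Grhl1, named here after their values were seen. Anks4b had scores of 149 and 349.7 for RARα, 53.4 and 118 for RARβ and 186 and 379 for RXRα. Cyp51, the lanosterol demethylase of cholesterol synthesis, had 379 and 159 for RARα, 201 and 125 for RARβ and 174 and 67.5 for RXRα. The rank of Anks4b was higher under RA for each receptor and that of Cyp51 lower, with no replicate to give the error of these differences.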

How the data were processed

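The authors carried out ChIP-seq of mouse liver with antibodies against RARα, RARβ and RXRα under a control and an RA diet. The authors aligned single-end reads of 35 bp to mm10 with Bowtie, called peaks with MACS and deposited 1 peak list per library, with no sign of pooling. The deposited score of each peak is the caller's -10 times the log10 of its p-value. It is not normalized between libraries, so scores of different lists are printed side by side but compared only through the percentile rank within each list. No list held a score under 50. Read totals per library are not in the lists, and depth limits which weak peaks could be called.

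The build was checked on the files, where a chromosome Y peak ended at 90842021, past the end of that chromosome in NCBIM37. Peaks were merged and assigned to the nearest protein-coding start of a RefSeq gene table of GRCm38.p6, taken as the outermost start of the gene's span. The strand came from RefSeq promoter sequences of the same build for 17492 genes and from GENCODE M1 by symbol for 4043, and both gave the same strand for 18198 of 18251 genes (99.7%). Where a region held several peaks of a list, the highest-scoring one stood for it. Promoter sequences lacked chromosome 18. Scripts used Python 3.11.15, pandas 2.3.3 and scipy 1.17.1, and were tested on simulated data. Intervals are Wilson 95% intervals, and the limit beside a count of 0 is 3 counts of the total.

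The members, gene groups and motifs were chosen with earlier results of these data known. Named genes were the 15 highest and 5 lowest members by mean rank, the 4 largest rank changes per receptor and direction, up to 4 genes per group by mean rank, all genes of the retinoid and RXR partner groups, genes of a group without a region where few, and the 2 regions on each side of the distance limit. Others are named as chosen after their values were seen. Alternatives were other windows, score and length limits of the lists, merging, assignment, gene sets and leaving out each list in turn. Starts from the RefSeq promoter sequences were added after seeing the data. Values of some genes under these rules are not reported here.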

Additional observations from a re-analysis of the deposited data

Results flagged for a closer look

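The median change of rank between diets, taken over the 4694 promoter regions, differed between receptors. From Control to RA it was -0.61 points for RARα, 3.58 for RARβ and 2.92 for RXRα. It was listed here because the same contrast gave a change of opposite sign for 1 receptor. Each value comes from 1 library per diet, so the difference between receptors was not tested. The lists of a receptor differ in length between diets, and a change of rank cannot be told apart from a change of the rest of the list.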

How the results depend on the processing

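Stricter peak limits changed the size of the set most. With only peaks of a score of at least 100, 1854 regions at 2195 genes were called in all 6 lists (20.2% of promoter regions). With every list shortened to its 14968 highest-scoring peaks, 687 regions at 771 genes were (8.23%). These settings kept 39.5% and 14.6% of the members. The share of promoter regions in all lists required was 47.5% with a window of 0.5 kb, 37.4% with 2 kb, 50.4% when the region had to span the start and 38.9% over all genes with a strand. Leaving out 1 list at a time, it was 54.7% without RARβ Control, 45.7% without RARβ RA, 47.7% without RXRα Control and 45.6% without RXRα RA. Counts of rank moves (higher and lower under RA) were 529 and 794 for RARα, 1693 and 958 for RARβ and 1533 and 787 for RXRα with a limit of 10 points. With 30 points they were 76 and 131, 670 and 300, and 351 and 131. With ranks among the members, which balance both directions by construction, they were 622 and 593, 993 and 1020, and 654 and 678. Of 28 gene groups, 25 stayed on the same side of the share of all genes with the score limit and 19 with lists of equal length. With the window of 0.5 kb the histones were below it. When the region had to span the start, 24 stayed, and the retinoid, hepatocyte factor, bile acid and plasma protein groups were above. Without RARβ Control 24 stayed, and the RXR partner, hepatocyte factor, bile acid and plasma protein groups were above. Without RARα Control the hepatocyte factors and plasma proteins were above, and without RARβ RA the bile acid genes and plasma proteins. The bile acid genes were above without RXRα Control and without wide regions. With the score limit the coregulators, fatty acid oxidation and histones were below. With equal length the tRNA synthetases, MCM group and histones were below, and the retinoid, RXR partner, hepatocyte factor, bile acid, plasma protein and P450 groups above. Starts of the RefSeq promoter sequences, added after seeing the data, kept 83.1% of the members. Causes were not tested. Without replicates nothing could be left out within a group, and no paired analysis was possible because no comparison has more than 1 library per group.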
